A study of Bos taurus with 20 samples.

Results

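MHC class II genes were followed in the whole blood of 20 pregnant cows. The members were listed by symbol, and that list was made with earlier results of these data known. They are BOLA-DRA, BOLA-DRB3, BOLA-DMA, BOLA-DMB, BOLA-DOA, BOLA-DOB, CD74 and CIITA, which are 8 of the 37063 gene identifiers counted. All 8 passed the filter on low counts (10 or more counts in 5 or more cows), as did 16269 genes in all. Every cow carried a female fetus of a beef breed, made in vitro with X-sorted semen and transferred as an embryo, so the cow was a surrogate and not the genetic mother. Blood was drawn once per cow, on day 63 of gestation, and the calf was weighed at birth. There was a single condition, and the cows differed by calf birth weight (BW), from 30 to 72.5 kg, with a mean of 45.0 kg ± 10.1 (SD, n = 20). The study also gives a range of recipient ages and considered dam parity in its model of assisted calving. Neither age nor parity was in any model here. Each cow gave 1 library, is a biological replicate of her own, and is named below as the recipient of a calf of a given weight.

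MHC class II molecules are pairs of an alpha and a beta chain that carry peptides from the endosomes to the cell surface, where CD4 T cells read them. CD74, the invariant chain, fills the groove of a new class II molecule until it reaches the endosome. DM then exchanges the remnant of CD74 for a peptide, and DO, found mostly in B cells, restrains DM. CIITA is the coactivator that class II genes need in order to be transcribed. In blood the pathway is best known from B cells, monocytes and dendritic cells, and activated T cells of cattle carry class II as well.

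The libraries held 24632077 to 39892111 counts assigned to genes, with a median of 33412740. No pair of the 190 library pairs was alike within sampling noise, the smallest chi-square per degree of freedom being 12.3. Marker genes of blood cells were present in every cow. Neutrophil markers summed to 2227 to 4769 CPM (counts scaled to library size), B cell markers to 1716 to 2968 CPM, monocyte markers to 749 to 1541 CPM and T cell markers to 737 to 1196 CPM. Of the dendritic cell markers, XCR1 was listed at 0 in every cow. The other 5 listed passed the filter, and the 0 is not read as absence of these cells. The labels name no batch, so no value within batches could be given.

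The 8 members together took 0.632 to 0.935% of all counts in a cow, with a median of 0.728%. CD74 alone took 0.355 to 0.563%, and in no cow did more than 7 genes have a higher CPM. All values below are CPM after TMM scaling. They are not divided by transcript length, since no transcript lengths were used, so their order between genes says nothing of transcript numbers. A gene called highest of a list below is the one with the highest CPM, uncorrected for length, as the rule for naming genes asks.

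BOLA-DRA, the alpha chain of DR, varied least among the members. Its level was 1307 CPM at the lowest, 1498 at the median and 1713 at the highest, a 1.31-fold range. Its standard deviation on the log2 scale was 0.11, against a median of 0.22 over all 16269 genes. BOLA-DRB3, the main expressed DR beta chain of cattle, ran from 592 over 743 to 1041 CPM, and the recipient of the 43 kg calf stood at the top of it, well above the next cow at 837 CPM. CD74 ran from 3596 CPM in the recipient of the 46 kg calf, over a median of 4277, to 5700 CPM in the recipient of the 43 kg calf, and so the same cow held the highest level of both genes.

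Of the DM chains, BOLA-DMA ran from 100 over 113 to 139 CPM and BOLA-DMB from 143 over 201 to 228 CPM. Both were lowest in the recipient of the 56 kg calf and highest in the recipient of the 37 kg calf. The DO chains varied more. BOLA-DOA ran from 40.1 over 59.4 to 79.4 CPM, a 1.98-fold range, and BOLA-DOB from 59.7 over 78.5 to 112 CPM, a 1.87-fold range. The recipient of the 47.4 kg calf was lowest in both, while BOLA-DOA peaked in the recipient of the 41.5 kg calf and BOLA-DOB in the recipient of the 30 kg calf. CIITA ran from 323 CPM, again in the recipient of the 47.4 kg calf, over 375 to 479 CPM in the recipient of the 43 kg calf. Coefficients of variation over the 20 cows were 7.70% for BOLA-DRA and 18.5% for BOLA-DOA, the ends of the range among the members.

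**Figure D1:**
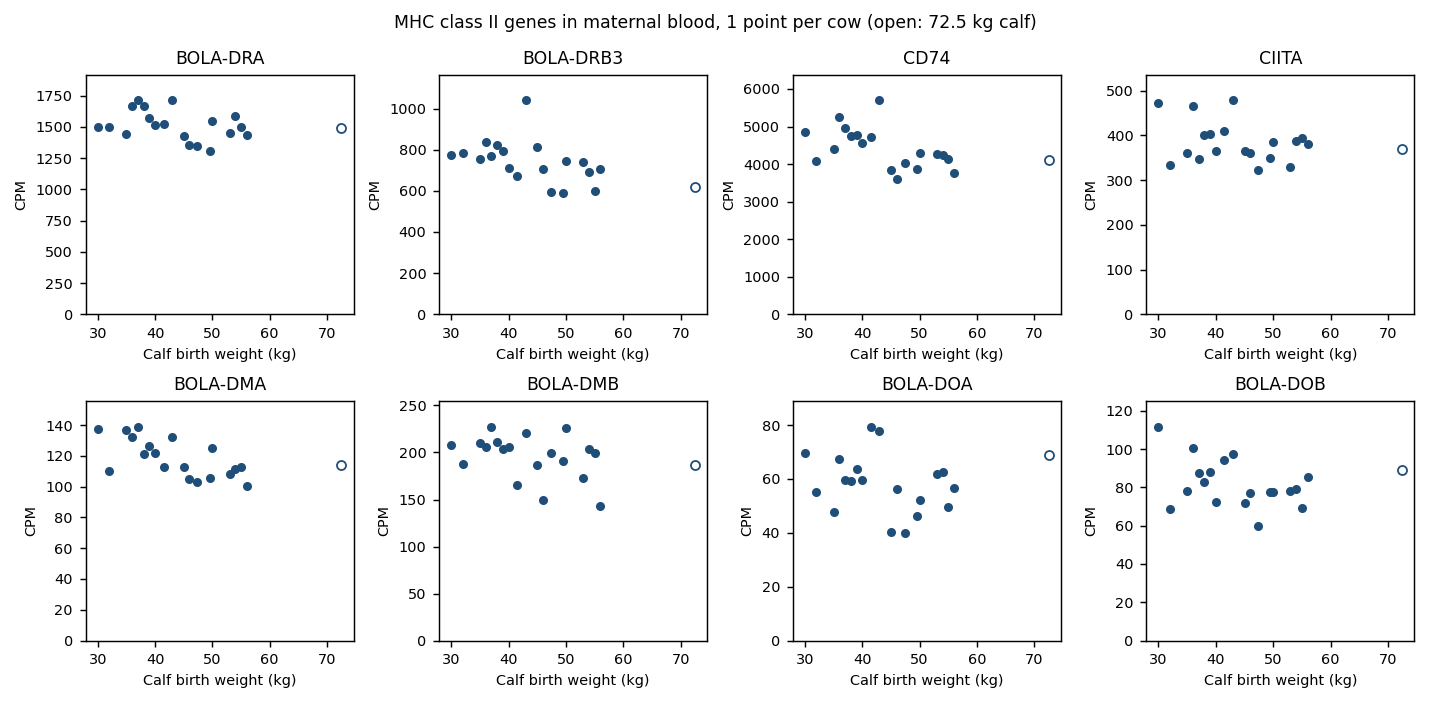
CPM of the 8 members (y axes, from 0) against calf birth weight in kg (x axes), 1 point per cow, with the recipient of the 72.5 kg calf drawn open. CD74 reached 5700 CPM in the recipient of the 43 kg calf, and levels of cows with light and heavy calves overlapped in every panel.

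The members moved together across cows, though not evenly. Over the 28 pairs, Pearson's r of log2 CPM ran from -0.0027 to 0.83 with a median of 0.60, and 27 pairs were positive. These are descriptions over 20 cows whose genes share the same libraries. BOLA-DRA and CD74 made the closest pair (r = 0.83), and no other gene tested was as close to BOLA-DRA as CD74 was. The chains of DO went together (r = 0.80), as did the chains of DM (r = 0.74) and the chains of DR (r = 0.65). Across the complexes the picture differed: r was -0.0027 between BOLA-DMB and BOLA-DOA and 0.087 between BOLA-DMB and BOLA-DOB, whereas CIITA was at 0.79 with BOLA-DOB and at 0.25 with BOLA-DMB. In the gene table of the ARS-UCD2.0 assembly BOLA-DMA and BOLA-DMB are neighbours, while CD74 and CIITA lie on chromosomes other than that of the class II chains, so closeness across cows was not limited to neighbouring genes.

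Genes outside the members that went most closely with each of them were listed by r over the 20 cows, with 3 per member and with no test. BOLA-DOB was closest to LOC510377 (r = 0.88), POU2AF1 (r = 0.88), a B cell coactivator that is itself in the B cell list used below, and RBM43 (r = 0.86). CIITA was closest to TNFRSF13C (r = 0.88), the receptor of the B cell survival factor BAFF and also in the B cell list, SLC43A2 (r = 0.85) and SYVN1 (r = 0.85). BOLA-DOA was closest to ZMIZ2 (r = 0.82), UBTF (r = 0.80) and MEI1 (r = 0.78). BOLA-DMB was closest to SLC2A6 (r = 0.90), a sugar transporter, CCDC9B (r = 0.90) and ZNF385A (r = 0.89).

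For BOLA-DMA the list held LOC112442705 (r = 0.88), the iron-regulating class I-like gene HFE (r = 0.87) and DHRS3 (r = 0.85). For CD74 it held the endoplasmic reticulum protein ERP29 (r = 0.85), TFEB (r = 0.84), a transcription factor of lysosomal genes, and IRF8 (r = 0.84), a transcription factor of B cells and myeloid cells. BOLA-DRA was closest to IQCD (r = 0.82), DDAH2 (r = 0.81) and RND2 (r = 0.81). BOLA-DRB3 was closest to the splicing factor SF3B4 (r = 0.83), HSPBP1 (r = 0.80) and B4GALNT4 (r = 0.78), the last at a median of under 1 CPM.

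The members were then set against scores of B cells and monocytes. A score is the mean z-score of log2 CPM over the marker genes of a cell type, here 18 genes for B cells (MS4A1, CD79A and others) and 10 for monocytes (CD14, CSF1R, CD163 and others). In whole blood a larger share of a cell type and more RNA per cell of it cannot be told apart. The scores were nearly unrelated to each other (r = -0.024). The B cell score was lowest in the recipient of the 47.4 kg calf (-1.62) and highest in that of the 43 kg calf (1.31). The monocyte score was low in the recipients of the 56 kg (-2.29) and 46 kg (-1.76) calves and between -0.52 and 0.85 in all others.

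BOLA-DOB, CIITA and BOLA-DOA rose with the B cell score, which is 3 of 8 members, against 1.7% of the 16251 genes tested that rose with it and 2.11% that changed in either direction (FDR < 0.05, Benjamini-Hochberg over all genes). For BOLA-DOB, r was 0.82 (permutation p = 1e-05, FDR = 0.00239) and Spearman's rho was 0.73 (permutation p = 0.00042, FDR = 0.0310). With 100000 resamples no p could be smaller than that 1e-05. For CIITA, r was 0.80 (permutation p = 3e-05, FDR = 0.00524) and rho was 0.77 (permutation p = 0.00011, FDR = 0.0127). For BOLA-DOA, r was 0.70 (permutation p = 0.00072, FDR = 0.0390) and rho was 0.66 (permutation p = 0.00191, FDR = 0.0737).

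The remaining members had smaller coefficients with the B cell score, and none passed. CD74 had r = 0.51 (permutation p = 0.0212, FDR = 0.265) and rho = 0.48 (permutation p = 0.0343, FDR = 0.354), BOLA-DRB3 had r = 0.41, BOLA-DRA had r = 0.38, BOLA-DMA had r = 0.36 and BOLA-DMB had r = 0.11. Without the 2 cows farthest from the median score, r over 18 cows was 0.73 for BOLA-DOB (FDR = 0.0433), 0.71 for CIITA (FDR = 0.0622) and 0.54 for BOLA-DOA (FDR = 0.302), where 1.0% of genes rose. BOLA-DOA thus rested partly on those cows, and leaving out 1 cow at a time put its r between 0.62 (without the 47.4 kg calf, FDR = 0.156) and 0.76, with the call lost in 9 of 20 such fits. Without the recipient of the 47.4 kg calf, 183 of 16251 genes rose with the score, against 276 in all 20 cows.

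BOLA-DMB was the 1 member of 8 that rose with the monocyte score, against 3.44% of the 16259 genes tested, or 5.94% in either direction. Its r was 0.87 (permutation p = 2e-05, FDR = 0.00316) and its rho was 0.74 (permutation p = 0.00026, FDR = 0.0255). BOLA-DMA had r = 0.59 (permutation p = 0.00429, FDR = 0.0609), CD74 had r = 0.56 (permutation p = 0.0103, FDR = 0.0997) and BOLA-DRA had r = 0.55 (permutation p = 0.0115, FDR = 0.106). These 3 missed the threshold. Coefficients were 0.19 for BOLA-DRB3, 0.090 for CIITA, 0.031 for BOLA-DOA and -0.077 for BOLA-DOB. Without the recipients of the 56 and 46 kg calves, r of BOLA-DMB over 18 cows was 0.65 (FDR = 0.133). In those 18 cows 0.0% of genes passed, so the lost call was shared by every gene, and the permutation p of BOLA-DMB was 0.00319.

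**Figure D2:**
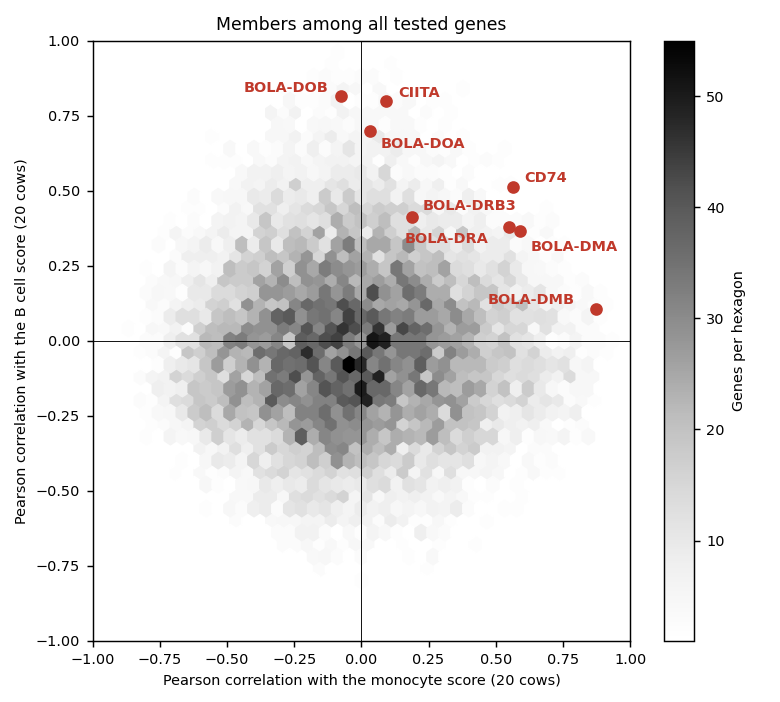
Pearson's r over 20 cows with the monocyte score (x axis) and with the B cell score (y axis). Grey hexagons count all genes tested, and red points are the 8 members, with BOLA-DOB, CIITA and BOLA-DOA at the top, BOLA-DMB at the far right and CD74 at 0.51 and 0.56 between them.

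Both scores were also put in 1 edgeR model, so that the slope on each is at a fixed level of the other. Slopes are log2 changes per SD of the score. On the B cell score 4 of 8 members rose, against 2.04% of 16241 genes: BOLA-DOA by 0.19 ± 0.043 (SE, FDR = 0.0144), BOLA-DOB by 0.17 ± 0.029 (FDR = 0.00108), CIITA by 0.13 ± 0.023 (FDR = 0.00146) and CD74 by 0.091 ± 0.025 (FDR = 0.0496). On the monocyte score 3 of 8 rose, against 4.09% of genes: BOLA-DMB by 0.16 ± 0.022 (FDR = 0.000141), CD74 by 0.099 ± 0.025 (FDR = 0.0185) and BOLA-DMA by 0.090 ± 0.026 (FDR = 0.0336). CD74, which chaperones class II in any cell that makes it, was the 1 member called on both, and leaving out 1 cow at a time kept its call on the B cell score in 6 of 20 fits. In percent, 1 SD of the B cell score went with 12.7% more BOLA-DOB and 1.61% more BOLA-DMB, and 1 SD of the monocyte score with 11.7% more BOLA-DMB and -0.748% for BOLA-DOB.

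BOLA-DRA had slopes of 0.043 ± 0.020 on the B cell score (FDR = 0.333) and 0.062 ± 0.020 on the monocyte score (FDR = 0.0586), and BOLA-DRB3 had 0.086 ± 0.039 (FDR = 0.326) and 0.040 ± 0.039 (FDR = 0.616), so neither DR chain was called on either. The T cell score was the reverse of the B cell score over these cows (r = -0.86), and the neutrophil score followed the monocyte score (r = 0.75). With the T cell and neutrophil scores added to the model, no member was called on the B cell score and BOLA-DMB alone on the monocyte score (FDR = 0.0178), against 0.129% and 0.954% of all genes. CD74 also lost its call on the B cell score with voom (FDR = 0.0569). Without the recipient of the 47.4 kg calf, FDR on the B cell score was 0.0796 for CD74 and 0.0829 for BOLA-DOA. All genes that rose with that score went from 332 to 226 in that fit. Without the recipient of the 56 kg calf, FDR on the monocyte score was 0.0704 for CD74 and 0.169 for BOLA-DMA, and without that of the 46 kg calf it was 0.0865 and 0.0751. All genes that rose with the monocyte score went from 665 to 150 without the first cow and to 434 without the second, so the loss was shared by many genes.

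**Figure D3:**
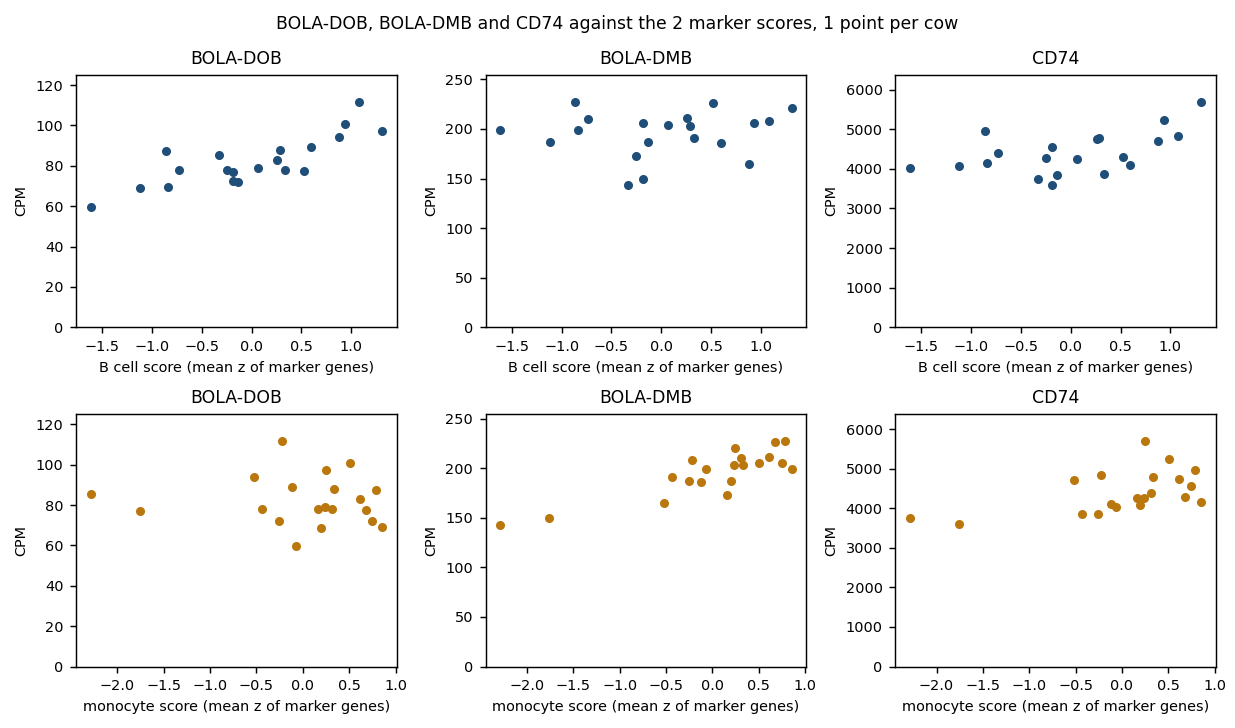
CPM of BOLA-DOB, BOLA-DMB and CD74 (y axes, from 0) against the B cell score (upper row) and the monocyte score (lower row), 1 point per cow. BOLA-DOB climbs along the B cell score and BOLA-DMB along the monocyte score, where 2 cows at -2.29 and -1.76 stand apart at 143 and 150 CPM.

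The balance of DM to DO was measured within each cow as the summed CPM of the DM chains over that of the DO chains. It ran from 1.60 in the recipient of the 41.5 kg calf, over a median of 2.28, to 3.03 in the recipient of the 47.4 kg calf. These cows had B cell scores of 0.88 and -1.62, the latter the lowest. The highest B cell score, in the recipient of the 43 kg calf, went with a ratio of 2.01. A score of -1.12, in the recipient of the 32 kg calf, went with 2.40. For 6 ratios between single members, chosen after the levels were seen, 12 relations with the scores were tested over 20 cows. BOLA-DMB over BOLA-DOB rose with the monocyte score (r = 0.65, permutation p = 0.00121, FDR = 0.0145) and fell with the B cell score (r = -0.58, permutation p = 0.00712, FDR = 0.0285). BOLA-DMB over BOLA-DMA rose with the monocyte score (r = 0.58, permutation p = 0.00572, FDR = 0.0285), and BOLA-DMA over BOLA-DOA fell with the B cell score (r = -0.53, permutation p = 0.0165, FDR = 0.0494). By Spearman's rho these 4 relations were 0.62 (permutation p = 0.00412, FDR = 0.0494), -0.53 (permutation p = 0.0176, FDR = 0.105), 0.44 (permutation p = 0.0557, FDR = 0.134) and -0.48 (permutation p = 0.0320, FDR = 0.1096). All 4 missed the threshold without the 2 cows farthest from the median score, where r was 0.47, -0.50, 0.21 and -0.41. The coefficient of BOLA-DMB over BOLA-DMA was the most reduced of them. Leaving out 1 cow at a time kept these calls in 19, 15, 16 and 5 of 20 fits. The other 8 relations, among them CD74 over BOLA-DRA and BOLA-DRB3 over BOLA-DRA, did not pass. The ratios are built from members already set against the same scores. BOLA-DMB alone had r = 0.87 with the monocyte score and BOLA-DOB alone r = 0.82 with the B cell score. The 4 relations therefore add no separate support.

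The study asked whether maternal blood at this stage reflects calf BW. Its own DESeq2 model left out the heaviest calf and gave 189 genes at an FDR below 0.05, 83 of them negative. DESeq2, run here on the same 19 cows, passed 189 of 23087 genes, 83 of them with a negative slope. The main test used here, edgeR, left out the same calf but differs in method and in its low-count filter. All 8 members had negative slopes on BW in the 19 cows, which means lower counts in cows with heavier calves, but none passed an FDR of 0.05 in edgeR. Of all 16206 genes tested, 0.0% passed, while 147 of 23087 genes passed in edgeR without the low-count filter. At an unadjusted p below 0.05 there were 4 of 8 members, BOLA-DMA, CD74, BOLA-DRB3 and BOLA-DOB, against 13.9% of all genes, or 7.08% with a negative slope. Slopes were negative for 53.4% of all genes, and the median slope was -0.011 (log2 per kg) over the members and -0.00072 over all genes. The members are correlated with each other, so their shared sign is not 8 separate observations.

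BOLA-DMA had the steepest and best determined slope, -0.013 ± 0.0035 (log2 per kg, SE), or -8.93% per 10 kg (p = 0.000843, FDR = 0.123). Its levels were 110 to 139 CPM in the 10 cows with the lighter calves and 100 to 125 CPM in the 10 with the heavier ones, so the groups overlapped, and 8 of the 10 lighter ones lay above the median of all cows. DESeq2 called it (FDR = 0.0357), the only member it called, against 0.819% of genes, or 0.36% with a negative slope. With edgeR it was called when the recipient of the 32 kg calf was left out (slope -0.016, FDR = 0.0415). In that fit 34 of 16115 genes passed, 17 of them with a negative slope. The unadjusted p of BOLA-DMA stayed below 0.05 in all 19 fits that left out 1 cow.

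CD74 had a slope of -0.012 ± 0.0044, or -8.06% per 10 kg (p = 0.0128, FDR = 0.231). It ran from 4081 to 5700 CPM in the 10 cows with lighter calves and from 3596 to 4290 CPM in the others, and 9 of the 10 lighter ones were above the median. BOLA-DRB3 had -0.012 ± 0.0050, or -7.91% per 10 kg (p = 0.0277, FDR = 0.290). BOLA-DOB had -0.012 ± 0.0056, or -8.00% per 10 kg (p = 0.0445, FDR = 0.347), and its slope was -0.0070 (p = 0.247) without the recipient of the 30 kg calf. Its p stayed below 0.05 7 times when each of the 19 cows was dropped in turn, against 17 for BOLA-DRB3 and 19 for CD74. The slopes of BOLA-DRB3 and BOLA-DOB had p of 0.0985 and 0.105 without the recipient of the 55 kg calf, and 0.0541 and 0.0608 without that of the 49.5 kg calf.

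The other members had unadjusted p above 0.05. Slopes were -0.0055 ± 0.0033 for BOLA-DRA (p = 0.107, FDR = 0.485), -0.0089 ± 0.0050 for BOLA-DMB (p = 0.0901, FDR = 0.453), -0.010 ± 0.0074 for BOLA-DOA (p = 0.179, FDR = 0.577) and -0.0068 ± 0.0047 for CIITA (p = 0.162, FDR = 0.559). CIITA, the coactivator, thus changed by -4.59% per 10 kg, and without the recipient of the 30 kg calf its slope was at -0.0033. The slope of BOLA-DMB was -0.0047 (p = 0.333) without the recipient of the 56 kg calf.

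The scores moved with BW only weakly in the 19 cows, with r = -0.16 for the B cell score and -0.30 for the monocyte score. With both scores in the model, all 8 slopes were smaller in size and still negative. BOLA-DMA (-0.0098 ± 0.0029, p = 0.00288) and BOLA-DOB (-0.0091 ± 0.0037, p = 0.0225) then had an unadjusted p below 0.05, against 11.4% of all genes, while CD74 was at -0.0067 ± 0.0032 (p = 0.0521) and BOLA-DRB3 at -0.0094 ± 0.0047 (p = 0.0623). With a score of 14 interferon-stimulated genes in the model instead, an alternative added after the data were seen, only BOLA-DMA remained below 0.05 (-0.011 ± 0.0040, p = 0.0146), against 11.9% of all genes. That score was at 3.18 in the recipient of the 30 kg calf and at 0.63 or below in all others, and its part in the slopes was not tested further.

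**Figure D4:**
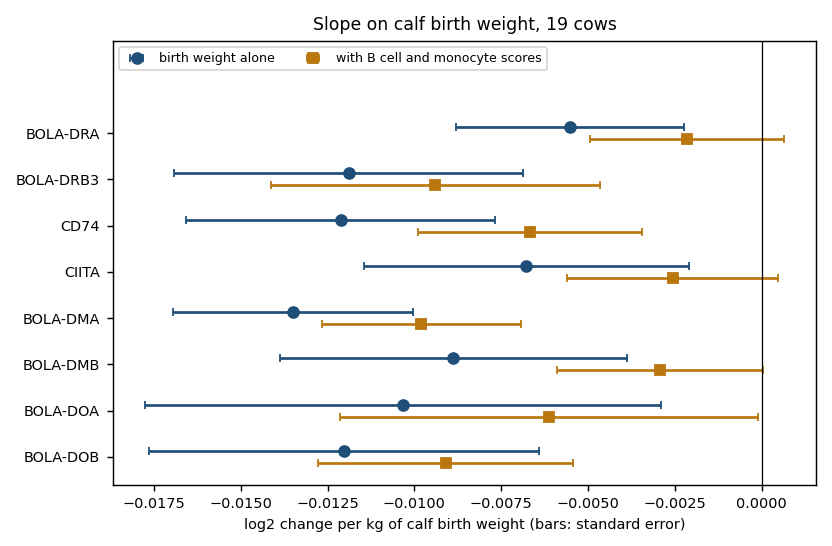
Slope of each member on calf birth weight (x axis, log2 change per kg) in 19 cows with standard errors, from birth weight alone (circles) and with the B cell and monocyte scores in the model (squares). All 16 slopes are below 0, and BOLA-DMA lies at -0.013 and -0.0098.

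Of the other class II chains, several DQ genes varied far more between cows than any member did, though BOLA-DQB1 did not. BOLA-DQA2, a DQ alpha chain, had 0 counts in the recipient of the 40 kg calf, 163 in that of the 41.5 kg calf and 248 in that of the 53 kg calf, and 5276 to 14414 counts in every other cow. BOLA-DQA5 had 1 count in the recipient of the 53 kg calf and 6400 in that of the 47.4 kg calf. LOC100848815, which the gene table lists as a DQA1, was highest in the recipients of the 40 kg (590 CPM) and 53 kg (579 CPM) calves. Summed over the 3 DQ alpha genes the level ran from 463 to 864 CPM, a 1.87-fold range with a coefficient of variation of 19.6%, close to that of BOLA-DOA. BOLA-DQB, a DQ beta chain, had 10267 counts in the recipient of the 55 kg calf and 9983 in that of the 47.4 kg calf, against 321 to 2079 in the rest, while BOLA-DQB1 ran only from 558 to 1058 CPM.

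The DQ and DRB genes are close copies that differ in number and sequence between cattle haplotypes, and how reads that match several copies were counted is not given in the sources used here. The division of counts between copies is therefore uncertain, and BOLA-DRB3 shares this limit with BOLA-DRB2 and the pseudogene LA-DRB. BOLA-DRB2 (25.9 to 93.6 CPM) had r = 0.69 with the B cell score. BOLA-DYA had at most 4 counts in any cow and was not tested, and BOLA-DYB ran from 0.944 to 4.18 CPM.

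**Figure D5:**
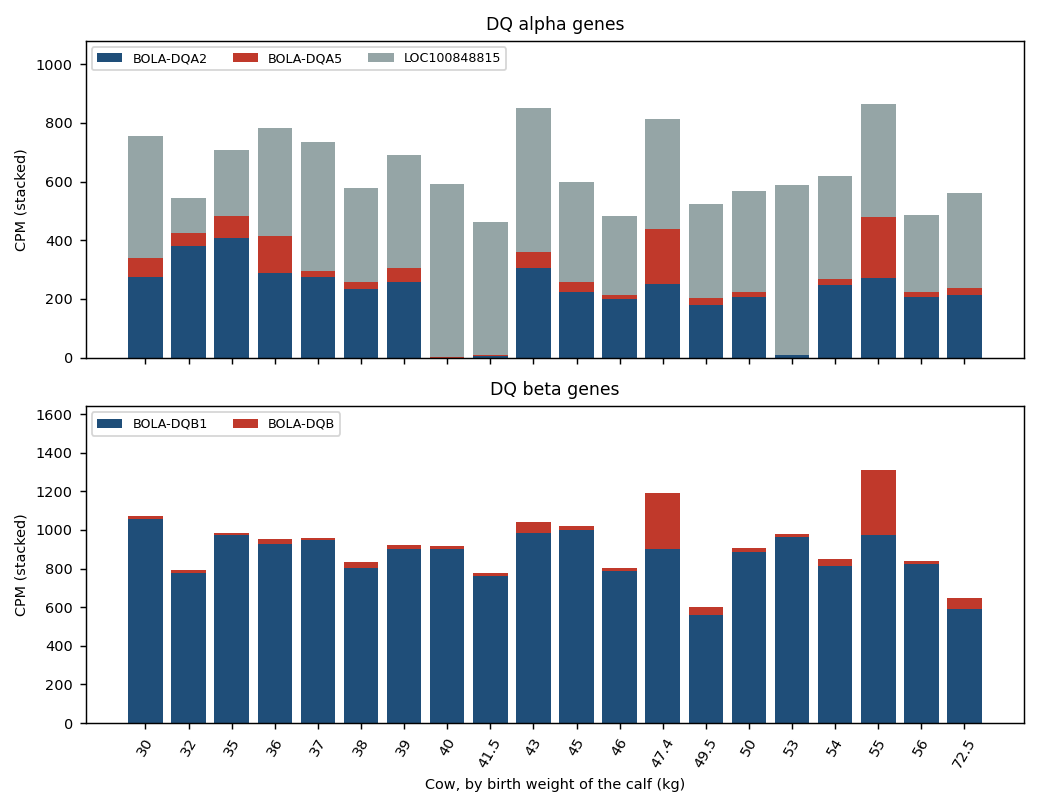
CPM of the DQ alpha genes (upper panel) and DQ beta genes (lower panel), stacked, for each cow in order of calf birth weight in kg. The recipients of the 40, 41.5 and 53 kg calves lack nearly all BOLA-DQA2 counts and those of the 47.4 and 55 kg calves have the most BOLA-DQB, while the summed DQ alpha level stays between 463 and 864 CPM.

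Of the 7 listed other chains tested on BW, none passed an FDR of 0.05. Over all genes, 13.9% had an unadjusted p below 0.05. BOLA-DQB (slope 0.14 ± 0.041, p = 0.00345, FDR = 0.175) and DSB (0.035 ± 0.016, p = 0.0470, FDR = 0.353) had positive slopes with an unadjusted p below 0.05, and BOLA-DYB had a negative one (-0.031 ± 0.015, p = 0.0448, FDR = 0.347). BOLA-DQB1 and LA-DRB were not on that list, and their slopes were -0.0057 ± 0.0055 (p = 0.309, FDR = 0.690) and -0.040 ± 0.019 (p = 0.0441, FDR = 0.346). The cows with 9983 and 10267 BOLA-DQB counts had calves of 47.4 and 55 kg, which are among the 10 heavier ones.

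The rest of the pathway was read from fixed lists, again without a call at an FDR of 0.05 in edgeR. Over all genes, 53.4% had negative slopes and 13.9% an unadjusted p below 0.05, or 7.08% with a negative slope. Of 6 factors that bind class II promoters (RFX5, RFXANK, RFXAP, NFYA, NFYB, NFYC), 3 had negative slopes and none an unadjusted p below 0.05. NFYC, the highest of them at a median of 92.5 CPM, had r = 0.64 with the B cell score, and CREB1 was listed at 0 in every cow, which is not read as absence, since most cells express it. Of 10 genes of endosomal processing and class II turnover, 8 had negative slopes, and CTSB (-0.016 ± 0.0070, p = 0.0363), a lysosomal protease, and CD83 (-0.013 ± 0.0048, p = 0.0152), which keeps class II at the cell surface, had an unadjusted p below 0.05. CTSD was the highest of that list at a median of 757 CPM. The proteases CTSB, LGMN and CTSS had r of 0.87, 0.82 and 0.79 with the monocyte score. The score of that list had r = 0.84 with it, so its genes are not separate observations.

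Of 8 genes between interferon gamma and CIITA, 3 had negative slopes and JAK1, the highest of them at a median of 584 CPM, had a positive one (0.0058 ± 0.0023, p = 0.0182). IRF1 was listed at 0 in every cow, which is not read as absence either. None of the 3 co-stimulatory genes had an unadjusted p below 0.05, and CD40, the highest at a median of 66.5 CPM, had r = 0.91 with the B cell score. Neither did the receptors that bind class II, CD4 (median 167 CPM) and LAG3. The 14 interferon-stimulated genes all had negative slopes, against 53.4% of all genes. Of them 11 had an unadjusted p below 0.05, against 7.08% of all genes with a negative slope and such a p. They were led by MX2 (-0.089 ± 0.019, p = 0.000138, FDR = 0.0976) and IFI6 (-0.059 ± 0.012, p = 0.000116, FDR = 0.0976), and MX1 was the highest at a median of 325 CPM. The other 9 were ISG15, RSAD2, IFI44, CMPK2, USP18, OAS1X, OAS1Y, OAS2 and MX1, with slopes from -0.092 to -0.029. The median r between pairs of the 14 genes of this list was 0.85, so they are not separate observations. The score of this list was at 3.18 in the recipient of the 30 kg calf, the lightest, and at 0.63 or below in all others. Fits of these genes without her are not given here.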

How the data were processed

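RNA of whole blood of 20 cows was sequenced. The deposited files hold raw read counts per gene, 1 file per cow, which the authors made with Trimmomatic, STAR 2.7.0b and featureCounts of Subread 2.0.3 after FastQC 0.11.9, on the cattle build ARS-UCD1.3. The strand setting and the handling of multi-mapping reads are not given in the sources used here. The labels and the study's methods name different library kits. Entrez identifiers were named from the NCBI table of ARS-UCD2.0, which matched all 37063, and which gave the neighbours and chromosome of a gene but no coordinates.

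Slopes on BW came from the edgeR 4.0.16 quasi-likelihood test with TMM on genes with 10 or more counts in 5 or more cows, in 19 cows, with Benjamini-Hochberg adjustment over all genes tested (FDR). The standard error is the slope over the square root of F. DESeq2 1.42.0 and limma 3.58.1 (voom) were alternatives, and R 4.3.3 was used. Correlations used log2 CPM (prior count 2) and two-sided permutation tests with 100000 resamples for every gene in numpy 2.4.6, with ranks from scipy 1.17.1. Both tests were checked on simulated data. The slopes simulated for edgeR were larger in size than those of any member, so that check does not cover slopes as small as theirs. Marker lists covered B cells, monocytes, dendritic cells, T cells, natural killer cells, neutrophils, plasma cells, erythroid cells and platelets. Of the monocyte list, ADGRE1 was not matched and CPVL did not pass the filter. CTSL and CTSV did not pass it either. An item of the B cell list is not reported here.

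Named genes were the members, the 3 genes most like each of them, all class II genes, and of each pathway list the highest gene and those with an unadjusted p below 0.05. LGMN and CTSS, named for their correlation with a score, and XCR1, CREB1 and IRF1, named for their zeros, were chosen after their values were seen. The members and lists were chosen with earlier results of these data known. All depth limits cover counting error only: the rarest member had 1186 or more counts in every cow.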

Additional observations from a re-analysis of the deposited data

How the results depend on the processing

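No paired analysis was possible because all cows form 1 group. Members with an unadjusted p below 0.05 on BW numbered 4, and 2 with the B cell and monocyte scores as covariates, 2 with total count added to these and 1 with the interferon-stimulated score (the last 2 chosen after seeing the data). Members past an FDR of 0.05 on BW numbered 0 in edgeR and 1 in DESeq2, where 0.0% and 0.819% of all genes passed. Genes of the pathway lists numbered 0 and 3, and these 3 were the interferon-stimulated MX2, IFI6 and OAS1Y. Leaving out 1 cow at a time gave 0 to 1 members past that FDR and 2 to 5 with an unadjusted p below 0.05. Without the 2 cows farthest from the median score, members correlated with the B cell score went from 3 to 1 and with the monocyte score from 1 to 0, while all genes that rose went from 276 to 163 and from 560 to 0. With T cell and neutrophil scores added, members called in the joint model went from 4 to 0 on the B cell score and from 3 to 1 on the monocyte score, while all genes went from 332 to 21 and from 665 to 155. Leaving out 1 cow gave 2 to 3 and 1 to 2 members correlated with the scores, and 2 to 4 and 1 to 4 in the joint model. The sign turned in 8 uncalled values: BOLA-DRA on the B cell score (-0.027) and BOLA-DOA on the monocyte score (-0.041) with T cell and neutrophil scores, r of BOLA-DOA with the monocyte score by Spearman (-0.0060), by 3 markers (-0.017) and without the 2 farthest cows (-0.011), and without those cows r of the BOLA-DOB to BOLA-DOA (0.053) and BOLA-DRB3 to BOLA-DRA (-0.050) ratios with the B cell score and of the CD74 to BOLA-DRA ratio with the monocyte score (-0.14). Leaving out 1 cow also turned uncalled values near 0: r of BOLA-DOA with the monocyte score ran from -0.0035 to 0.10, its slope from -0.0026 to 0.030 and that of BOLA-DOB from -0.031 to 0.017. The causes were not tested. Scaling by RLE, no filter and the rank of BW left each count of members within 1.5 times. The count over all genes did depend on the filter: without it, 147 of 23087 genes passed an FDR of 0.05 on BW in edgeR, against 0 of 16206 with it.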

Other observations

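The members were also set beside the other marker scores over the 20 cows, as descriptions with no test. With the T cell score all 8 coefficients were negative, from -0.75 for BOLA-DOB to -0.23 for BOLA-DMB, and with the natural killer cell score they ran from -0.62 for BOLA-DOB to -0.044 for BOLA-DMB. With the neutrophil score BOLA-DMB was highest at 0.62 and BOLA-DOB lowest at -0.16. With the dendritic cell score BOLA-DMB was highest at 0.50 and BOLA-DOB lowest at -0.35. With the plasma cell score the range was -0.13 to 0.22, with the platelet score -0.11 to 0.42 and with the erythroid score 0.15 to 0.41.

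With the interferon-stimulated score, which 1 cow dominates, r was 0.66 for BOLA-DOB, 0.56 for BOLA-DMA, 0.51 for CIITA and 0.44 for CD74. With the score of endosomal processing and turnover genes, r was 0.81 for BOLA-DMB, 0.76 for BOLA-DMA, 0.76 for CD74 and 0.67 for BOLA-DRA, but 0.14 for BOLA-DOA and 0.15 for BOLA-DOB. After the B cell and monocyte scores were taken out of log2 CPM, r between members ran from -0.35 to 0.74 with a median of 0.44, the highest being that of BOLA-DMA with BOLA-DOB.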
